A study of Mus musculus with 6 samples.

Results

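The EGF family ligands and their ERBB receptors were followed as 10 genes, chosen by symbol: the EGFR ligands Areg, Ereg, Hbegf, Tgfa, Btc and Epgn, the receptors Egfr, Erbb2 and Erbb3, and the neuregulin Nrg1. All 10 were among the 16081 genes listed for each sample, and 7 had enough counts to enter the test across 11552 genes. The RNA came from Lewis cells, a line derived from a mouse lung carcinoma, which had been exposed for 24 hours to SD70, an inhibitor of the histone demethylase KDM4C, or to DMSO, its vehicle. Each group had 3 samples, and no SD70 dose was given for this experiment in the sources used here. The labels name no other difference between the groups, and the comparison asks how the ligand and receptor transcripts of these tumour cells change under SD70. The labels do not say whether the replicates were separate cultures. The paper states at least 3 independent repeats for all its experiments, but it does not tie these samples to them. The p-values set each difference against the variation between these samples, estimated in part over all genes tested, and that variation may be technical.

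EGF family ligands are made as membrane-anchored precursors. Proteases of the ADAM family cut them at the cell surface, and the released part binds a receptor on the same or a neighbouring cell. The receptors work in pairs: EGFR binds EGF, amphiregulin, epiregulin, HB-EGF, TGF-alpha, betacellulin and epigen, ERBB3 and ERBB4 bind neuregulins, ERBB2 has no known ligand of its own and serves as a partner, and ERBB3 has very weak kinase activity. Active pairs signal through adaptor proteins to RAS and ERK and through PI3K to AKT. In lung epithelium this family controls growth and repair, and it is often overactive in lung cancer.

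Total counts per sample ranged from 15276744 to 17060424, and a floor of 3 counts corresponded to 0.176 to 0.196 CPM, the count scaled to the library total. Normalized counts of single genes are counts brought to a common library size. Lewis cells are a carcinoma line, and the epithelial and lung markers were mixed. Krt8 and Krt18 were expressed, Epcam, Cdh1, Krt19 and Sftpc had 0 or 1 count in every sample, and Nkx2-1 and Sftpb were not among the listed genes. The summed normalized count of the epithelial list was 3916 to 4106 with DMSO and 2573 to 2896 with SD70, and both tested genes, Krt8 and Krt18, fell. The mesenchymal list, which is mostly vimentin, summed to 74650 to 84090 with DMSO and to 57000 to 61440 with SD70. Of its 3 tested genes, Vim and Fn1 fell and Zeb1 rose, with a log2 fold change of 0.63. Of 9 immune markers, 3 could be tested and only Cd68 passed (lower), with a summed normalized count of the list of 266 to 277 with DMSO and 191 to 224 with SD70, while the defining markers Ptprc and Csf1r had at most 2 counts in any sample. The endothelial list summed to 56.5 to 66.2 with DMSO and to 62.6 to 78.1 with SD70, nearly all of it Cdh5. In bulk RNA, fewer cells of a kind and less RNA per cell cannot be told apart, and the part of these shifts in the results on the EGF family was not tested.

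The ligand genes Epgn, Ereg, Areg and Btc lie next to each other on mouse chromosome 5. The sequences upstream of the genes are shown for the 3 of these with an entry in the RefSeq promoter table, since these neighbours differed in level, and for Egfr, the receptor for all of them, which was at or near 0 in every sample. Each run is the 250 bases before the annotated start of the gene in GRCm38.p6, read 5′ to 3′ on the strand of the gene. The Areg sequence is chr5:91139349-91139598 (plus strand), Btc is chr5:91402995-91403244 (minus strand), Epgn is chr5:91027267-91027516 (plus strand) and Egfr is chr11:16751953-16752202 (plus strand). Capitals mark matches to the motifs searched on both strands.
Areg: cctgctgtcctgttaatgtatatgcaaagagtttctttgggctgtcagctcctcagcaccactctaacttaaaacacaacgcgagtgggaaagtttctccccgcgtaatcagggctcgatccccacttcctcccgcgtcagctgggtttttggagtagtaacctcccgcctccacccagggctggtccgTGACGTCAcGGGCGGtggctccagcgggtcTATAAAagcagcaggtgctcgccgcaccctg
Btc: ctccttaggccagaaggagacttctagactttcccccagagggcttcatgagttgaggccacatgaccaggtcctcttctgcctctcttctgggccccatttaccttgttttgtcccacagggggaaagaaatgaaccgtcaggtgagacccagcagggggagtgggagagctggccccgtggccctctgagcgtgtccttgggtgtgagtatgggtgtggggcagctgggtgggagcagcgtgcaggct
Epgn: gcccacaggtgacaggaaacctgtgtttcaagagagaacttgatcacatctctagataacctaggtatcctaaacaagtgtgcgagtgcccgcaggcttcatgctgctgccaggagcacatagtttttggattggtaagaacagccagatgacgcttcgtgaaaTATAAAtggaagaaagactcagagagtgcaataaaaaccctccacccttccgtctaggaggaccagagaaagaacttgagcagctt
Egfr: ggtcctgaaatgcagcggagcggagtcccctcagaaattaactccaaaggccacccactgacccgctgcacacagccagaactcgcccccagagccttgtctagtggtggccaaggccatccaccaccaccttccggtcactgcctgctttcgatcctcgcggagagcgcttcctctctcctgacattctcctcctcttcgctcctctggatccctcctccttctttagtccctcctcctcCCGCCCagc

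The motifs searched were the cyclic AMP response element TGACGTCA, the AP-1 site TGANTCA, the GC box GGGCGG and the TATA box TATAAA, and no match overlapped another. Areg, which was the most abundant ligand with DMSO, had a cyclic AMP response element starting 61 bases, a GC box starting 52 bases and a TATA box starting 31 bases before the gene. Among all 32851 mouse promoters of the same length, 1.55% held the response element, 32.7% the GC box and 12.4% the TATA box. Epgn held a TATA box starting 86 bases before the gene, Egfr a GC box at 9 bases, and Btc none of the motifs. The AP-1 site, which 6.75% of promoters held, was in none of these 4 windows. The share of G and C was 57.2% upstream of Areg, 59.6% for Btc, 46.8% for Epgn and 60.8% for Egfr, beside a median of 52.4% over all promoters. A match is a description of the letters, and factor binding was not measured. Of the other members with an entry, Erbb2 had none of the motifs, and the entry for Tgfa runs into the gene as positioned here and was not used.

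Levels between genes were compared as FPKM, a level per gene length and per library total. With DMSO, the cells held 3 ligands at a high level, 2 receptors at a moderate level and 3 ligands at a low level. Areg was at 64.7 ± 5.52 FPKM (SD, n = 3), above 91.8% of all listed genes. Hbegf followed at 29.4 ± 2.10 FPKM and Ereg at 26.1 ± 0.722 FPKM, and the ranges of these 3 genes did not overlap. The receptors came next, with Erbb2 at 3.47 ± 0.359 FPKM and Erbb3 at 2.23 ± 0.157 FPKM. Tgfa, at 1.09 ± 0.299 FPKM, and Btc, at 0.807 ± 0.182 FPKM, overlapped in range and cannot be ordered. Epgn was lowest of the genes detected in every sample, at 0.183 ± 0.0569 FPKM.

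With SD70, the order at the top changed. Areg was at 49.1 ± 2.06 FPKM and Ereg at 45.7 ± 2.70 FPKM, and their ranges, from 47.5 to 51.4 and from 42.6 to 47.7 FPKM, now overlapped. Hbegf was in the third place at 16.3 ± 1.43 FPKM. The order below them was as with DMSO: Erbb2 at 2.91 ± 0.237, Erbb3 at 1.67 ± 0.125, Tgfa at 0.45 ± 0.0721, Btc at 0.387 ± 0.161 and Epgn at 0.123 ± 0.0666 FPKM. Tgfa and Btc again overlapped.

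**Figure D1:**
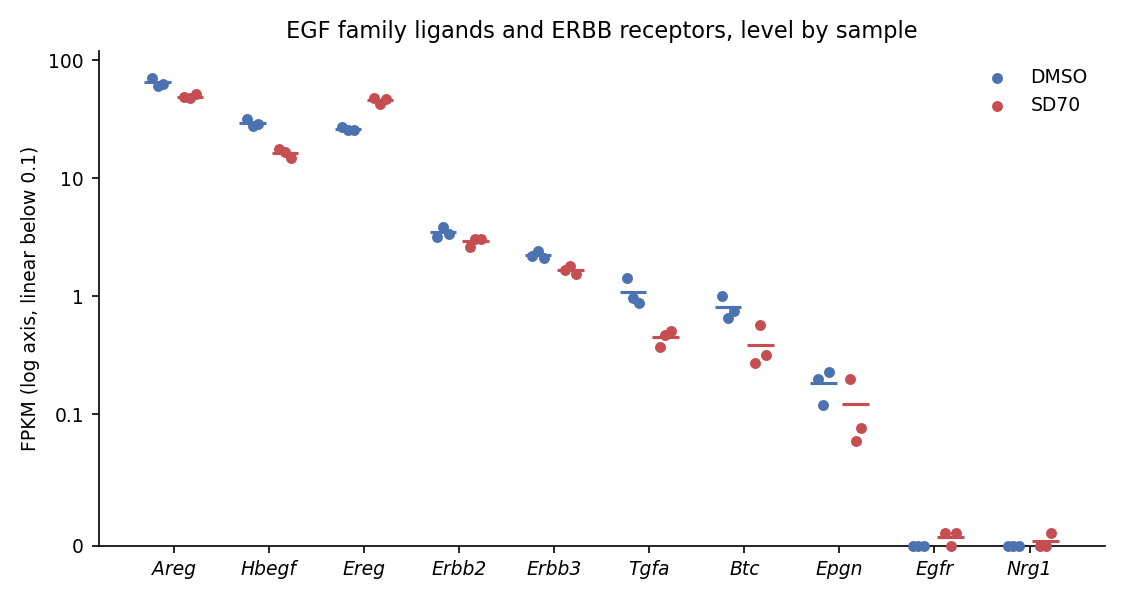
FPKM of each of the 10 genes in each DMSO (blue) and SD70 (red) sample on an axis that is logarithmic above 0.1 and linear below; points are samples and bars are means of 3. Areg, Hbegf and Ereg lie between 14.8 and 71.0 FPKM, Ereg is the gene whose SD70 samples lie above its DMSO samples with a clear gap, and Egfr and Nrg1 lie at or near 0.

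The receptors were examined first, with gene positions given in GRCm38.p6. Egfr (NCBI Gene 13649, chr11:16752203-16913907) encodes the receptor for all of the EGFR ligands. No DMSO sample had a count of it (0 in each of 3), and SD70 replicates 1, 2 and 3 had 1, 0 and 1. With DMSO, 0 counts allow up to 0.178, 0.179 and 0.176 CPM in replicates 1, 2 and 3. Egfr was therefore not detectable at this depth with DMSO and was below the floor of 3 counts with SD70, and no fold change is given. These limits cover counting error only.

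Erbb2 (NCBI Gene 13866, chr11:98412484-98437716) encodes the partner receptor without a known ligand. Under DMSO the 3 samples had 252, 305 and 265 normalized counts of it, and under SD70 they had 214, 246 and 246. The groups did not overlap, but the gap between them was small beside the spread within each. The log2 fold change was -0.22 (standard error 0.0960, 95% interval -0.41 to -0.02), and it did not pass, with an adjusted p of 0.0487 from edgeR's quasi-likelihood test, for which a threshold of 0.01 was used throughout. Erbb2 overlaps the gene Mien1 by 9 bases, and whether strand was used in counting is not given in the sources used here.

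Erbb3 (NCBI Gene 13867, chr10:128567523-128589635) encodes a receptor for neuregulins. The normalized counts came to 137, 152 and 133 under DMSO and to 109, 115 and 99.0 under SD70. All SD70 samples lay below all DMSO samples. The fall was to 0.766 of the DMSO level (95% interval 0.643 to 0.912), or -0.38 as log2 fold change (standard error 0.124, adjusted p = 0.00797, edgeR's quasi-likelihood test). This adjusted p was close to the threshold of 0.01, and Erbb3 did not pass in 7 of 14 alternatives, where the adjusted p from edgeR, limma or DESeq2 reached up to 0.0488. It did not pass without DMSO replicate 1 or 2 and without any of the SD70 replicates, with an adjusted p from edgeR of 0.0131, 0.0416, 0.0191, 0.0105 and 0.0343.

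Erbb4, the other neuregulin receptor, was not among the genes listed for each sample and was not analysed here. Of the neuregulins, Nrg1 (NCBI Gene 211323, chr8:31807452-32891609) had 0 counts in 5 of the 6 samples and 1 count in SD70 replicate 3, which is below the floor. Nrg2 had the highest level of the neuregulins, at 0.603 FPKM with DMSO, and its normalized counts were 34.1, 37.9 and 27.8 under DMSO against 18.3, 12.9 and 20.9 under SD70. The gene overlaps the listed gene Psd2 by 135 bases and long non-coding RNA genes by 18911 and 3752 bases, and reads from these stretches cannot be told apart without strand. The groups did not overlap, and Nrg2 fell by 0.94 on the log2 scale (standard error 0.261, adjusted p = 0.00230, edgeR's quasi-likelihood test). Nrg2 did not pass in 4 of 14 alternatives, with an adjusted p of 0.0300 from DESeq2's Wald test, 0.0103 from limma on log2(FPKM + 1), and 0.0166 and 0.0255 from edgeR without DMSO replicate 2 and without SD70 replicate 2. Nrg4 reached 10, 12 and 7 counts under DMSO and 8, 11 and 6 under SD70, too few for the test. Nrg3 was not among the listed genes.

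Among the EGFR ligands, Ereg rose and Areg, Hbegf, Tgfa and Btc fell. Of the 7 tested members of the family, 1 passed the test as higher and 5 as lower, beside 25.8% and 24.2% of all genes tested. Groups did not overlap for any of the 7, beside 64.4% of all genes tested, and for such a gene the exact two-sided permutation test over 3 against 3 samples gives p = 0.1, the smallest it allows. With the further demand that the log2 fold change reach 1 in size, 2 of the 7 were called, Tgfa and Btc, both lower. The background for these calls was 5.90% of all genes tested in either direction, 2.61% lower and 3.29% higher. The median log2 fold change of the 7 was -0.38, beside -0.0043 over all genes tested.

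Ereg (NCBI Gene 13874, chr5:91074617-91093649) encodes epiregulin, which binds EGFR and ERBB4. Normalized counts of this gene were 1747, 1662 and 1673 in the vehicle group against 3176, 2826 and 3096 in the SD70 group. Every SD70 sample was far above every DMSO sample, and the means were 1694 ± 46.3 and 3033 ± 183 (SD, n = 3). Ereg rose 1.79-fold (95% interval 1.66 to 1.93), or 0.84 as log2 fold change (standard error 0.0537, adjusted p = 1.79e-15, edgeR's quasi-likelihood test). It had the smallest standard error of the log2 fold change among the members, and over 14 alternatives its log2 fold change stayed between 0.78 and 0.89.

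Areg (NCBI Gene 11839, chr5:91139599-91148432) encodes amphiregulin, a ligand of EGFR that binds heparan sulphate. Sample by sample, 1204, 1033 and 1080 normalized counts were found under DMSO against 843, 830 and 889 under SD70. The groups did not overlap, and the DMSO samples varied more than the SD70 samples. Areg fell to 0.772 of the DMSO level (95% interval 0.707 to 0.843), or -0.37 as log2 fold change (standard error 0.0626, adjusted p = 4.32e-06, edgeR's quasi-likelihood test). Areg and Ereg, the gene next to it, thus moved in opposite directions.

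Hbegf (NCBI Gene 15200, chr18:36504927-36515805) encodes heparin-binding EGF-like growth factor, a ligand of EGFR and ERBB4. Under DMSO the 3 samples had 1145, 1001 and 1040 normalized counts of it, and under SD70 they had 648, 614 and 542. The lowest DMSO sample was well above the highest SD70 sample. Hbegf fell to 0.567 of the DMSO level (95% interval 0.515 to 0.624), or -0.82 as log2 fold change (standard error 0.0683, adjusted p = 1.90e-12, edgeR's quasi-likelihood test). The genes of Ereg and Hbegf overlap long non-coding RNA genes, which were not analysed here, by 319 and 613 bases, and reads from these stretches cannot be told apart without strand.

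Tgfa (NCBI Gene 21802, chr6:86195038-86275744) encodes TGF-alpha, a ligand of EGFR. The normalized counts came to 102, 69.0 and 62.3 under DMSO and to 27.4, 34.8 and 37.4 under SD70. The groups were separate, and DMSO replicate 1 stood above the other samples. Tgfa fell to 0.426 of the DMSO level (95% interval 0.320 to 0.568), or -1.23 as log2 fold change (standard error 0.204, adjusted p = 3.86e-06, edgeR's quasi-likelihood test). Its estimate was the largest in size among the members tested, but its interval overlapped those of Btc and Hbegf and, in size, that of Ereg. Btc was ahead without SD70 replicate 2 (-1.43 against -1.27 for Tgfa), and Hbegf and Ereg were ahead with limma on log2(FPKM + 1). Without DMSO replicate 1 Tgfa still passed (adjusted p = 1.52e-04, edgeR), but the log2 fold change was -0.99 and no longer reached the fold minimum, as with limma on log2(FPKM + 1), where it was -0.52.

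Btc (NCBI Gene 12223, chr5:91357261-91402994) encodes betacellulin, a ligand of EGFR and ERBB4. Normalized counts of this gene were 44.8, 29.1 and 33.6 in the vehicle group against 12.2, 25.8 and 14.3 in the SD70 group. The groups were separate, though SD70 replicate 2 came close to the lowest DMSO sample. Btc fell to 0.492 of the DMSO level (95% interval 0.335 to 0.723), or -1.02 as log2 fold change (standard error 0.274, adjusted p = 0.00166, edgeR's quasi-likelihood test). Btc was no longer called in 6 of 14 alternatives. It stayed past the test but under the fold minimum with limma on log2(FPKM + 1) (-0.38) and on log2(FPKM + 0.1) (-0.93). It did not pass in DESeq2's Wald test (adjusted p = 0.0195), or in edgeR without DMSO replicate 1 (log2 fold change -0.83, adjusted p = 0.0204), without SD70 replicate 1 (-0.81, adjusted p = 0.0248) and without SD70 replicate 3 (-0.91, adjusted p = 0.0108).

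Epgn (NCBI Gene 71920, chr5:91027517-91035212) encodes epigen, a ligand of EGFR. Only 5, 3 and 6 counts were found under DMSO and 5, 2 and 2 under SD70. The groups overlapped, these values were at or near the floor, and the gene had too few counts for the test. Egf, the ligand after which the family is named, is not among the 10 genes but belongs to the same group of EGFR ligands. Sample by sample, 10.7, 16.5 and 13.4 normalized counts were found under DMSO against 25.4, 27.8 and 31.9 under SD70. The groups were separate, from a very low level, and the gene overlaps a long non-coding RNA gene by 1565 bases. Egf rose 2.08-fold (95% interval 1.40 to 3.08; log2 fold change 1.05, standard error 0.279, adjusted p = 0.00150, edgeR's quasi-likelihood test). Egf was no longer called in 5 of 14 alternatives: it fell short of the fold minimum with limma on log2(FPKM + 1) (0.27) and on log2(FPKM + 0.1) (0.80), and it did not pass in 3, with an adjusted p of 0.0240 from DESeq2's Wald test and of 0.0124 from edgeR without DMSO replicate 1, and with a value just above 0.01 without SD70 replicate 3.

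**Figure D2:**
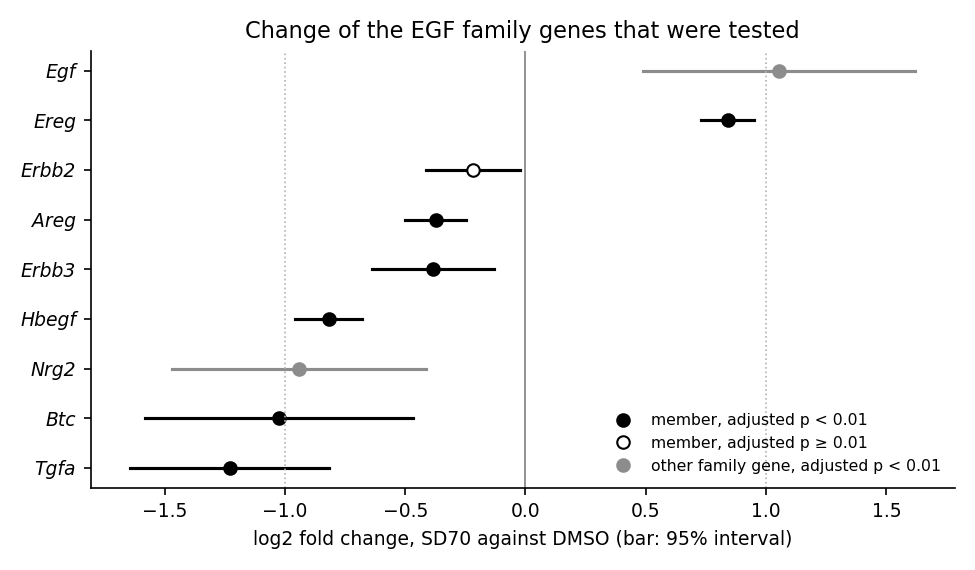
Log2 fold change, SD70 against DMSO, with its 95% interval, for the 7 tested members (black) and for Egf and Nrg2 (grey); open points did not pass the test and dotted lines mark -1 and 1. Ereg at 0.84 and Egf at 1.05 lie to the right, Erbb2 has an interval that ends at -0.02, and Tgfa at -1.23 lies farthest to the left.

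The EGFR ligands were next taken as a pool, by summing the FPKM of Areg, Ereg, Hbegf, Tgfa, Btc, Epgn and Egf in each sample. These sums describe transcripts, and ligand protein was not measured. The summed level was 133, 116 and 119 FPKM with DMSO and 115, 108 and 114 FPKM with SD70. The SD70 samples were slightly lower, and their mean was 0.919 of the DMSO mean, from 0.896 to 0.958 when each sample was left out in turn. With counts divided by the length of the longest annotated transcript in place of FPKM, the sums came to 113, 99.8 and 103 CPM per kb under DMSO and to 101, 95.7 and 101 under SD70, and the groups overlapped. Normalized counts, which are not divided by length, went the other way when summed over the 10 members. That sum was 4254 to 4638 with DMSO and 4694 to 5036 with SD70, and it includes the receptors and leaves out Egf. The summed ligand level was 24.6, 18.5 and 21.8 times the summed level of Egfr, Erbb2 and Erbb3 with DMSO. With SD70 it was 26.6, 22.4 and 24.9 times, and the ranges of this ratio overlapped. Erbb2 and Erbb3 made up nearly all of that receptor sum. Egfr, the receptor for these ligands, was at or near 0 FPKM in every sample.

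While the total in FPKM moved little, its composition shifted. Areg made up 53.5%, 52.2% and 52.5% of the pool with DMSO and 42.1%, 43.8% and 45.0% with SD70. Ereg made up 20.3%, 22.1% and 21.7% with DMSO and 41.5%, 39.3% and 40.8% with SD70. The share of Hbegf was 24.0%, 24.0% and 24.1% with DMSO and 15.3%, 15.4% and 12.9% with SD70. Each of these shares was separate between the groups, with Ereg gaining and Areg and Hbegf losing. The ratio of Ereg to Areg was 0.380, 0.424 and 0.413 with DMSO and 0.985, 0.897 and 0.907 with SD70. Tgfa, Btc, Egf and Epgn were minor: their mean shares went from 0.882%, 0.654%, 0.212% and 0.149% under DMSO to 0.401%, 0.347%, 0.462% and 0.109% under SD70. As shares of a sum, these values depend on one another, and no test was made on them.

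**Figure D3:**
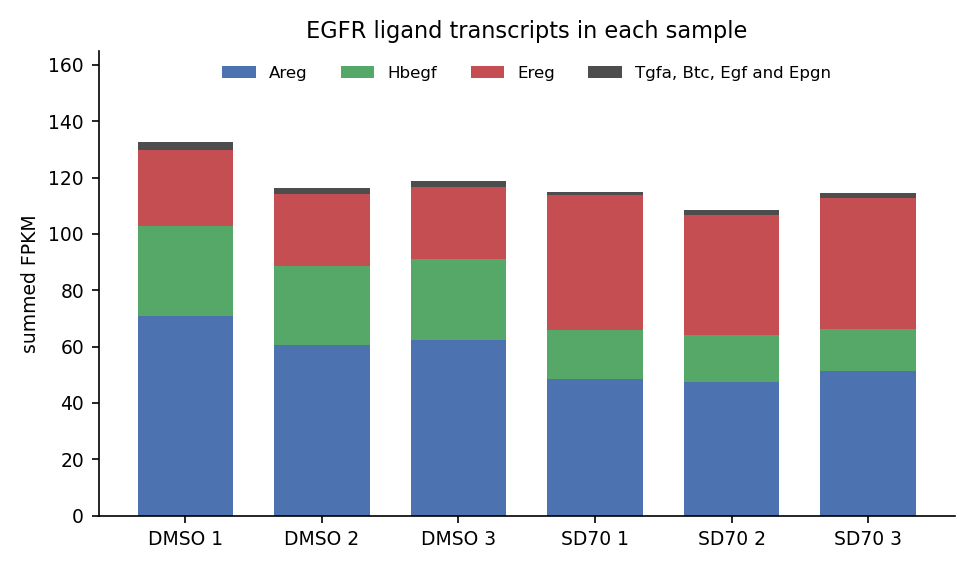
Summed FPKM of the EGFR ligands in each sample, stacked by ligand, with Tgfa, Btc, Egf and Epgn drawn together. The totals lie between 108 and 133 FPKM, and the Ereg part grows from about 20.3 to 22.1% of the bar with DMSO to 39.3 to 41.5% with SD70.

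Ereg, Areg, Btc and Epgn share their neighbourhood on chromosome 5 with a group of chemokine genes, which encode attractants for neutrophils and T cells. From Cxcl5 to Cxcl10 the region spans 1590 kb and holds 50 RefSeq genes, of which 24 were listed and 17 tested. Of the tested genes, 9 passed as higher and 4 as lower, beside 25.8% and 24.2% of all genes tested; the region was bounded by chemokine genes that themselves rose. Epgn begins 121.6 kb after the end of Cxcl2, Ereg begins 39.4 kb after Epgn, Areg 46.0 kb after Ereg and Btc 208.8 kb after Areg. The 4 ligand genes together span 375.5 kb.

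Along the chromosome, the neutrophil chemokine genes Cxcl5, Cxcl3, Cxcl1 and Cxcl2 on the side of Epgn rose, with log2 fold changes of 3.15, 3.07, 1.82 and 2.57. Ppbp, which lies among them, did not pass (0.22, adjusted p = 0.280, edgeR). Mthfd2l, a gene of mitochondrial folate metabolism between Cxcl2 and Epgn, had a log2 fold change of -0.21 and did not pass (adjusted p = 0.0130, edgeR), though it passed in 4 of 14 alternatives. Ereg was thus the tested ligand gene nearest to the chemokine genes that rose, and the next ligand genes, Areg and Btc, fell. Beyond Btc, Odaph and G3bp2 fell (-0.60 and -0.19), Sdad1 rose (0.43), and Cxcl10, a T cell chemokine at the far end, rose (3.01). Rchy1 and Uso1 passed as higher with small changes (0.19 and 0.15), and they did so in only 6 and 5 of 14 alternatives. Cdkl2 and Naaa did not pass (-0.13 and -0.02).

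**Figure D4:**
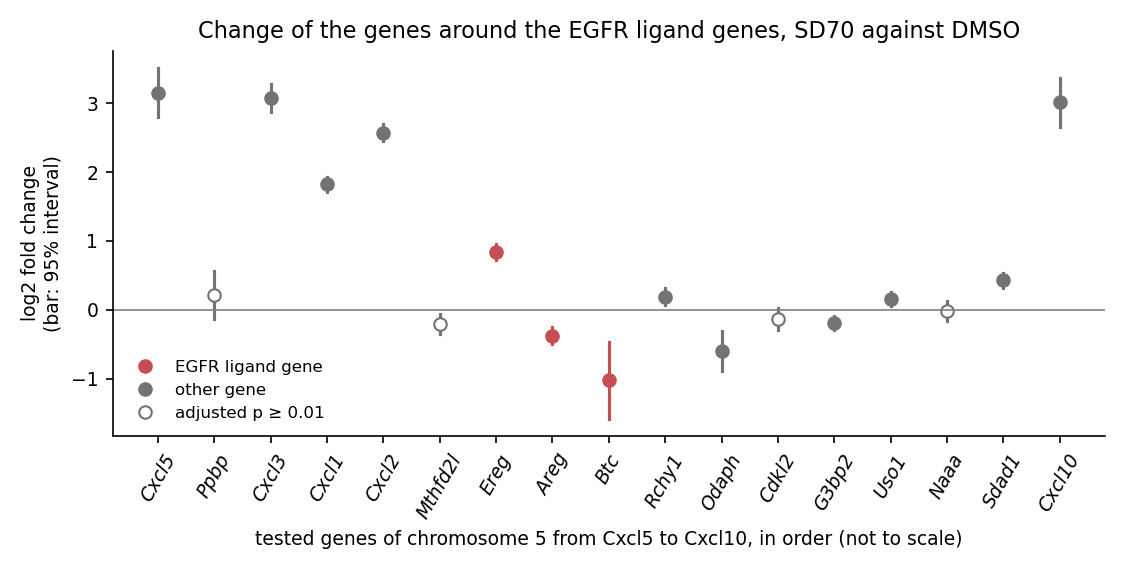
Log2 fold change with its 95% interval for the 17 tested genes of chromosome 5 from Cxcl5 to Cxcl10, in chromosomal order and not to scale, with the EGFR ligand genes in red and open points for genes that did not pass. Between the chemokine genes at 1.82 to 3.15 on the left and Cxcl10 at 3.01 on the right, Ereg lies above 0 and Areg and Btc below it.

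The genes most like Tgfa, the member with the largest estimated change in edgeR with all samples, were found by the root mean square difference of log2 CPM over the 6 samples, each gene centred on its DMSO mean. Among 9623 genes whose mean normalized count reached 100, the closest were Ypel2, at a difference of 0.164, Ago4 at 0.185, Lipe at 0.188, Ablim3 at 0.192 and Csrnp1 at 0.192. Their log2 fold changes were -1.12, -1.10, -1.10, -1.05 and -1.07, so all 5 were lower with SD70 by an amount close to that of Tgfa. Ago4 encodes an Argonaute protein and Lipe hormone-sensitive lipase. The likeness was used to choose these genes, and their values are a description.

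The other genes of the pathway were taken from 4 lists. The ligand sheddases and trafficking factors had 12 genes, of which 10 were tested, 3 passed as higher and 6 as lower, with a median log2 fold change of -0.30 beside -0.0043 over all genes tested. Adam8, a metalloprotease of the ADAM family, fell most: 90.6, 68.0 and 69.0 normalized counts under DMSO stood against 23.3, 23.8 and 26.4 under SD70 (log2 fold change -1.63, standard error 0.201, adjusted p = 1.41e-08, edgeR). With all samples in edgeR it was the only gene of the 4 lists that also reached the fold minimum, which it missed with limma on log2(FPKM + 1) (-0.78). The main sheddases of EGFR ligands moved little and in opposite directions. Adam17, which cuts the precursors of amphiregulin, TGF-alpha, epiregulin and HB-EGF, rose slightly (log2 fold change 0.24, adjusted p = 1.13e-04, edgeR). Adam10, which cuts those of betacellulin and EGF, fell slightly (log2 fold change -0.21, adjusted p = 5.06e-04, edgeR). Of the factors that carry or stabilise ADAM17, Frmd8 and Rhbdf1 fell (-0.49 and -0.40) and Rhbdf2 rose (0.29). Adam15 and Bace1, a protease that cuts neuregulin precursors, fell as well (-0.50 and -0.38). Adam10, Adam17 and Rhbdf2, outside the rule for named genes, were picked with their values in view.

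The receptor adaptors and effectors had 31 genes, all tested, of which 7 passed as higher, 9 as lower and 15 did not pass, with a median of -0.05. Sos2, an exchange factor that activates RAS, rose nearly to the fold minimum, from 1241, 1215 and 1141 to 2474, 2084 and 2564 normalized counts, a log2 fold change of 0.98 (adjusted p = 1.81e-13, edgeR), and it reached that minimum without DMSO replicate 1 (1.01) or SD70 replicate 2 (1.07). Pik3r1, the regulatory subunit of PI3K, rose (0.79), as did the kinase Src (0.48). Mapk3, which encodes the kinase ERK1, fell (-0.48). Genes at several levels of the pathway thus moved in either direction.

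The receptor inhibitors and turnover factors had 20 genes, of which 18 were tested, 5 passed as higher, 5 as lower and 8 did not pass, with a median of -0.01. The phosphatase Ptpn12 and the suppressor of cytokine signalling Socs4 rose (both 0.54), and Ptpn1, Ubash3b and Socs5 fell (-0.39, -0.38 and -0.34). The ERK output genes, which are transcribed when ERK is active, had 10 genes, of which 9 were tested, 3 passed as higher, 5 as lower and 1 did not pass, with a median of -0.15. Phlda1 rose from 1143, 1053 and 1061 to 1838, 1758 and 1799 normalized counts (log2 fold change 0.73, adjusted p = 1.67e-13, edgeR), and Etv5 and Epha2 rose less (0.40 and 0.30). Spry2 and Dusp6, feedback inhibitors of this pathway, fell (-0.45 and -0.42). The list thus did not move in a single direction. In all, 43 of 68 tested genes of the 4 lists passed, 18 higher (26.5%) and 25 lower (36.8%), beside 25.8% and 24.2% of all genes tested in these directions.

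**Figure D5:**
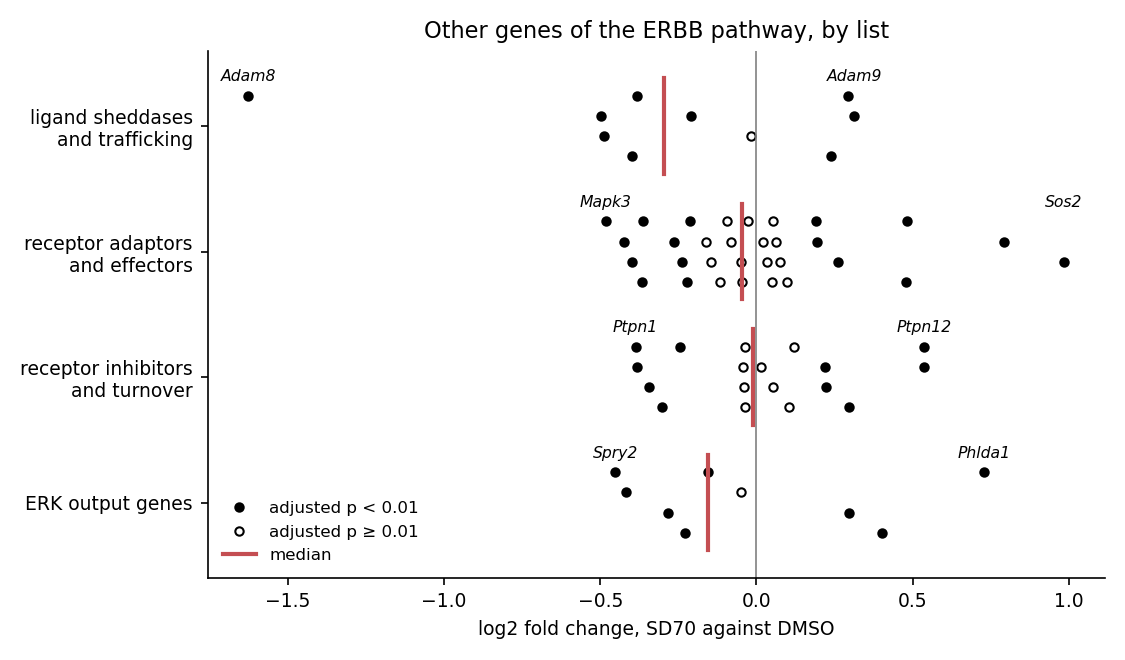
Log2 fold change, SD70 against DMSO, of each tested gene in the 4 pathway lists; filled points passed the test, open points did not, red bars are medians, and the lowest and highest gene of each list is named. Adam8 at -1.63 stands apart from the other points, which lie between -0.50 and 0.98, and each list has genes on both sides of 0.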

How the data were processed

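RNA-seq was measured in 6 samples, 3 with DMSO and 3 with SD70, grouped by the sample labels. The authors aligned BGISEQ-500 reads to GRCm38.p6 with HISAT, per the paper's methods; the submitters' processing notes list StringTie 1.3.3b and the build mm8, and the counting tool and strand are not given in the sources used here. The authors deposited an expected count per gene, not normalized, which was rounded to whole numbers here; all counts of the 10 members were whole. The authors also deposited a length-scaled value that is not named in the file headers and was identified as FPKM: over 5752 genes with at least 500 counts, the length implied by count, value and library total differed between samples by a median ratio of highest to lowest of 1.02.

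In edgeR 4.0.16 (R 4.3.3), low genes were removed with filterByExpr, libraries were scaled by TMM, and the quasi-likelihood test (glmQLFTest after a robust glmQLFit) was run, with Benjamini-Hochberg adjustment over 11552 genes. A gene passed at an adjusted p under 0.01 and was called where its log2 fold change also reached 1 in size. Normalized counts are counts divided by each effective library size and multiplied by their mean. Intervals are 95% intervals, from the quasi-likelihood standard error. The scripts were tested on simulated data. Between replicates, counts differed by more than sampling noise (chi-square per gene 2.12 to 4.97), so all 6 were kept. With 3 samples in each group, precision is limited, and at low counts counting error adds to it.

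Alternatives were DESeq2's size factors, library totals alone, all genes with at least 1 count, at least 10 counts in every sample, the Wald test of DESeq2 1.42.0, limma 3.58.1 on log2(FPKM + 1) and log2(FPKM + 0.1), a block for the replicate number, each sample left out in turn, an adjusted p under 0.05 and no fold minimum. The text names all members, the other EGFR ligands, neuregulins and receptors, the tested genes of the chromosome 5 neighbourhood, up to 5 genes of each pathway list by absolute log2 fold change among those that passed with a mean normalized count of 20 or more, and the 5 genes most like the member with the largest change. A gene that the rule would name is not reported here. The members and lists were chosen with earlier results of these data known. Gene positions and upstream sequences are from RefSeq (GRCm38.p6), matched by gene identifier or symbol; 6 of the 10 members had a promoter entry that was read, and that of Tgfa was left out. Protein sequences were not used here.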

Additional observations from a re-analysis of the deposited data

How the results depend on the processing

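Of 98 values for the 7 tested members over 14 alternatives, 87 kept their direction and their side of the adjusted p threshold, 11 no longer passed it (Erbb3 in 7 and Btc in 4) and 0 changed sign. Calls, which also need the fold minimum, were lost in 6 for Btc and in 2 for Tgfa. The members called numbered 2, Tgfa and Btc, and 1 with DESeq2's Wald test and with limma on log2(FPKM + 0.1) (Tgfa in each), 0 with limma on log2(FPKM + 1), whose pseudocount is as large as the levels of these genes, and 6 with no minimum on the fold change. When each sample was left out, 0 to 2 were called: 0 without DMSO replicate 1, and Tgfa alone without SD70 replicate 1 or 3. The genes called numbered 681, from 621 to 721 when each sample was left out, 283 with limma on log2(FPKM + 1) and 5767 with no minimum on the fold change. Causes were not tested. Library totals alone moved the median of all genes to -0.04.

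With the replicate block, 692 genes (680 of them among the 681), the same 2 members and 43 pathway genes were called or passed, and the block changed no call of a member. The numbers were not taken to pair the samples, since deviations of same-numbered samples correlated with r = -0.07, 0.05 and 0.11 over 11552 genes. Depth limits Egfr, Nrg1, Epgn and Nrg4, which had too few counts for the main filter.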
